A study of Mus musculus with 15 samples.

Results

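Apold1 (ENSMUSG00000090698, apolipoprotein L domain containing 1) was followed through 15 samples of mouse skeletal muscle. It is 1 of 55536 genes in the deposited tables and was matched by its gene name in both of them. It was selected on measured values: in an earlier reading of these data it was among the genes that were higher in D489V than in control muscle. Its values in D489V, against control and against knockout, are therefore given as a description with no test. All samples are labelled as coming from male mice aged 2 months. The groups were 5 samples labelled wild type (control), 5 labelled PdgfrB Knock Out (knockout) and 5 labelled PdgfrB D489V, which the study's design text calls constitutively active. The design text places both alleles in myogenin-expressing cells, that is, cells of the muscle lineage. The promoter or Cre line, the muscle taken, the strain and the litter are not given in the sources used here. RNA was poly(A)-selected and sequenced with a directional library kit.

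Apold1 encodes a membrane-associated protein with an apolipoprotein L domain. It is best known from the lining of blood vessels, where it behaves as an immediate early gene: its RNA is induced quickly, without need for new protein synthesis, by stimuli such as low oxygen or growth factors. In endothelial cells it has been linked to the storage granules called Weibel-Palade bodies, which hold von Willebrand factor, P-selectin and angiopoietin 2. Pdgfrb, the gene altered in these mice, encodes a receptor for platelet-derived growth factor that is normally most abundant on pericytes and other mural cells around vessels.

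In the GENCODE M21 annotation of GRCm38, Apold1 lies on the plus strand of chromosome 6, from 134981718 to 134986836. It is protein-coding, with 1 transcript of 2 exons that together span 3567 bases. Exon 1 (134981718 to 134982029) is untranslated, and the coding stretch of 738 bases lies in exon 2. RefSeq places the start of the gene 283 bases further downstream, at 134982001. No other gene's transcript shared more than 47 bases with it at 95% identity or above. Short stretches around the start are shown because immediate early genes are commonly read through promoter elements close to the start site. In the RefSeq window from 250 bases before to 50 bases after the start, letters were searched on both strands for the TATA box TATAAA, the core of hypoxia response elements ACGTG, the AP-1 site TGANTCA, the cyclic AMP response element TGACGTCA and the CArG box of serum response factor. The TATA box and the hypoxia core were each found 1 time and do not overlap. Both matches lie before the RefSeq start but inside exon 1 of the GENCODE model. They are printed below with 10 flanking bases on each side, from RefSeq on GRCm38.p6, plus strand, 5′ to 3′, with the match in capitals.
Apold1 TATAAA, chr6:134981959-134981984: tcctgggagcTATAAAgtatgctcgt
Apold1 ACGTG, chr6:134981828-134981852: taaatacgggACGTGctttgccagc
Of 32851 windows of the same length, 13.6% held TATAAA and 19.6% held ACGTG; a match describes the letters and is no evidence of binding. The other motifs were not found in the Apold1 window, and they were present in 7.81% (TGANTCA), 1.79% (TGACGTCA) and 1.63% (CArG box) of windows. Among the immediate early genes described later, 28 of 35 had a window, of which 7 held TATAAA, 13 held ACGTG, 1 held TGANTCA, 3 held TGACGTCA and 3 held a CArG box. Of the 30 endothelial genes 13 had a window, of which 2 held TATAAA, 1 held ACGTG, 1 held TGACGTCA and none held the others.

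The values are normalized counts, that is, read counts scaled by the authors to make samples comparable. They summed to 29815559 to 36489777 per sample. The 5 control columns were identical in both tables, and the median ratio to the geometric mean across samples, over 16604 genes above 0 in every sample, ran only from 1.0069 to 1.0097, so the knockout and D489V samples could be set side by side. Pdgfrb itself was at 1673 to 1848 in controls, 958 to 1628 in knockout and 820 to 1062 in D489V. Xist stood at 3165 in knockout replicate 3, a sample whose label gives its sex as male, and did not exceed 101 elsewhere. Apold1 and the list counts that rest on the knockout are also given without that sample. Nothing in the labels says whether samples came from separate animals, and p-values measure the spread between these samples only.

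Apold1 was lowest in knockout, intermediate in control and highest in D489V muscle. In knockout samples 1 to 5 its normalized count was 51, 119, 140, 85 and 65. In controls 1 to 5 it was 277, 209, 219, 216 and 313. In D489V samples 1 to 5 it was 511, 705, 507, 882 and 624. Every knockout sample lay below every control, and every D489V sample lay above every control, so no 2 groups overlapped. The means were 92.0 ± 37.1 (SD, n = 5) in knockout, 246.8 ± 46.0 (SD, n = 5) in control and 645.8 ± 155.9 (SD, n = 5) in D489V, and the gap between neighbouring groups exceeded the SD within either of them.

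**Figure D1:**
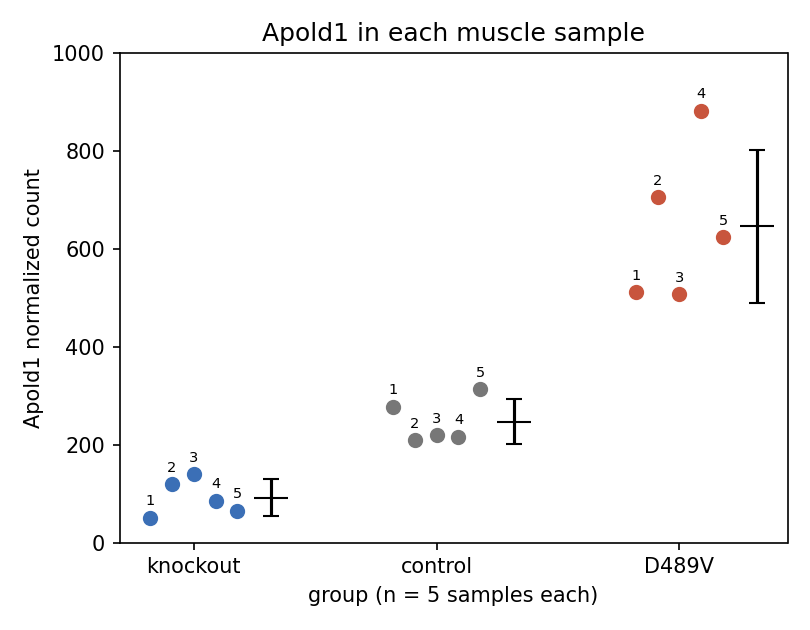
Normalized count of Apold1 in each of the 15 samples, by group. Points are samples with their replicate numbers, and the bars beside them give the mean and SD (n = 5). The knockout samples sit between 51 and 140, the controls between 209 and 313 and the D489V samples between 507 and 882.

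In D489V the mean was 2.62 times that of controls, a log2 difference of 1.37 with a standard error of 0.172. This is the contrast that chose the gene, and it is not counted as evidence. In knockout the mean was 2.68 times lower than in controls, a log2 difference of -1.49 with a standard error of 0.259. The exact two-sided permutation test of 5 against 5 samples gave p = 0.00794, the smallest it can give. In the limma fit over 15234 genes, however, the adjusted p was 0.167, so the difference did not pass the correction, although Apold1 ranked 9 of all genes by p. The knockout and D489V contrasts share the same controls. In the knockout comparison 0.00656% of genes tested passed the threshold (1 gene, not Apold1). The 2 groups did not overlap for 2.24% of genes, with the knockout lower for 1.25% and higher for 0.991%. In the D489V comparison 0.0587% passed, 0.0261% higher and 0.0326% lower, and the groups did not overlap for 2.16%, with D489V higher for 1.1%. Without knockout replicate 3, the log2 difference in knockout was -1.66 (limma adjusted p 0.0974). A fit of all 15 samples, which shares one estimate of spread, took the same difference of -1.49 past the threshold (limma adjusted p 0.0288). That spread includes the D489V samples that chose the gene, so this p is not counted as evidence. Between D489V and knockout the log2 difference was 2.86 with a standard error of 0.26, a 7.02-fold ratio of means. In whole-tissue RNA, fewer cells of a type and less RNA per cell cannot be told apart.

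The level of Apold1 was moderate. Per kilobase of exon, controls held 69.2 normalized counts of Apold1, above 50.4% of the 15807 genes that reached 10 in 5 samples or more. On the same scale controls held 557 for Pecam1 and 1200 for Cdh5, endothelial adhesion genes, and 72.1 for Vwf, the gene of von Willebrand factor. The per-kilobase mean of Apold1 was 25.8 in knockout and 181 in D489V, whereas that of Vwf was 61.8 and 97.6.

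The genes around Apold1 on chromosome 6 were read beside it, and no test compared it with them. Of 17 other annotated genes lying within 250 kb, 7 passed the filter on low values. None of the 7 passed the limma threshold against control in either comparison, where 0.00656% and 0.0587% of all genes did, so this count says little. Ddx47, a helicase gene whose start lies 24.8 kb beyond the end of Apold1, had log2 differences of -0.05 in knockout and -0.11 in D489V. Cdkn1b, the cell cycle inhibitor p27, which ends 56.2 kb before Apold1, had log2 differences of 0.09 and 0.18. Hebp1, a haem-binding protein gene 151 kb away, had log2 differences of -0.32 in knockout and 0.60 in D489V. It was the 1 neighbour that passed in D489V against knockout (log2 difference 0.92, limma adjusted p 0.00516), where 20.8% of all genes did.

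**Figure D2:**
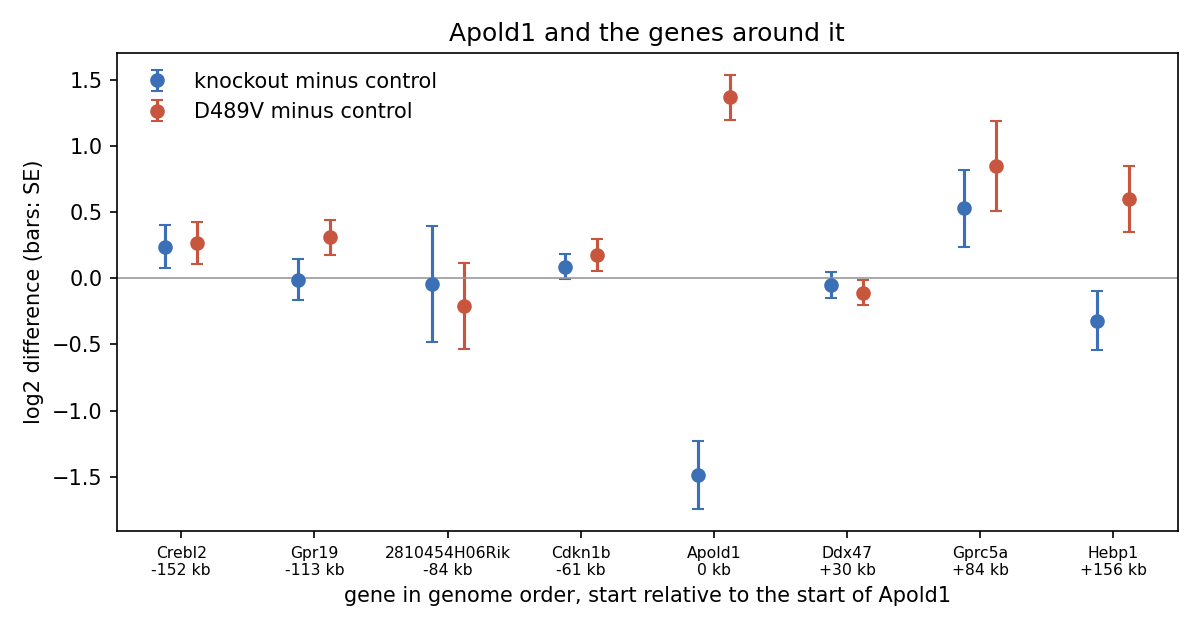
Log2 differences from control (y axis, bars are standard errors) for Apold1 and the 7 neighbouring genes that passed the filter, in genome order with the start of each gene relative to that of Apold1. Apold1 stands at -1.49 in knockout and 1.37 in D489V, and the closest neighbour downstream, Ddx47, at -0.05 and -0.11.

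The other apolipoprotein L genes were mostly too low to test. Of 13 such genes, 3 passed the filter on low values in each comparison with control and 4 in D489V against knockout. None passed the limma threshold, which 0.00656% (knockout against control), 0.0587% (D489V against control) and 20.8% (D489V against knockout) of all genes did. At an unadjusted p under 0.05 in limma there was 1 in each, beside 15.1%, 9.43% and 37.7% of all genes in the same order. Their median log2 difference was -0.61 in knockout against control (lowest -1.08), -0.21 in D489V against control and 0.63 in D489V against knockout, where 4 of 4 were positive (highest 1.65). The r with Apold1 was positive for 4 of 5, both over the 15 samples (median 0.22) and within groups (median 0.11). Apol6 and Apol10b were picked out after their values were seen, as the other family members with the highest counts. Apol6 ran from 584 to 1125 in knockout, 500 to 891 in control and 644 to 1163 in D489V, so its groups overlapped. Apol10b ran from 53 to 153, 151 to 319 and 110 to 254 in the same order of groups.

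Endothelial genes were compared first. All 30 genes of the endothelial list were measured, and none was at 0 in all samples. Their summed normalized count ran from 24160 to 34143 in knockout, 34129 to 50478 in control and 37505 to 46750 in D489V. In knockout against control 0 of 30 passed in limma (17 at an unadjusted p under 0.05, a level that 15.1% of all genes reached), with a median log2 difference of -0.45 and 29 of 30 negative, against a median of 0.01 over all genes tested. Cldn5, a tight junction gene, had the lowest of these values, at 318 to 835 in knockout and 1069 to 1719 in control (log2 difference -1.43, limma adjusted p 0.116). Without knockout replicate 3 the median was -0.34, with 27 of 30 negative and 15 at that level, beside 10.6% of all genes. In D489V against control 0 of 30 passed (6 at an unadjusted p under 0.05, beside 9.43% of all genes), and the median log2 difference was 0.09. The controls were split, as seen after the values were known. The mean log2 value of the list was 10.3 and 10.08 in controls 1 and 2 and 9.63 to 9.75 in controls 3 to 5. In D489V it ran from 9.79 to 10.16.

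Of the endothelial genes, 20 of 30 were higher in D489V than in knockout and 0 lower, beside 10.3% of all genes tested that were higher and 10.5% that were lower. At an unadjusted p under 0.05 there were 22 of 30, beside 37.7% of all genes. For 16 of the 30 every D489V sample lay above every knockout sample, beside 6.7% of all genes (7.22% the other way). The median log2 difference was 0.49 over the list and 0 over all genes tested. Kdr, the main receptor for vascular endothelial growth factor, held 2246, 2158, 1486, 1260 and 1278 normalized counts in knockout and 2832, 3520, 2516, 3258 and 2886 in D489V (log2 difference 0.87, limma adjusted p 0.00778). The log2 difference was 0.54 for Tek, the angiopoietin receptor (limma adjusted p 0.00706), 0.48 for Pecam1 (limma adjusted p 0.0131), 0.65 for Cdh5, the endothelial cadherin (limma adjusted p 0.0172), and 0.69 for Vwf (limma adjusted p 0.0141). Without D489V replicate 2 the number that passed was 13, in a fit where 854 of 15113 genes tested passed as higher. Without knockout replicate 3 the number was 16, beside 7.87% of all genes higher.

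The list named endothelial activation holds genes of stimulated endothelium, among them those for cargo of Weibel-Palade bodies. In D489V against knockout 5 of its 14 tested genes passed, all higher in D489V, beside 10.3% of all genes tested; 3 passed without knockout replicate 3, beside 7.87%. The median log2 difference was 0.25, 3 of 14 were negative (lowest -0.43), and the summed values overlapped, at 11892 to 16001 in knockout and 13264 to 16897 in D489V. Selp, the gene of P-selectin, held 17 to 37 normalized counts in knockout and 57 to 103 in D489V (log2 difference 1.94, limma adjusted p 0.00176). Angpt2, the gene of angiopoietin 2, held 70 to 101 and 132 to 178 (log2 difference 0.83, limma adjusted p 0.00459). Against control none of the 14 passed in either comparison (5 in knockout and 3 in D489V at an unadjusted p under 0.05 in limma, beside 15.1% and 9.43% of all genes).

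To set Apold1 against the endothelial level of the same sample, the mean log2 value of the 30 genes was subtracted from that of Apold1, a measure added after the values were seen. The difference was -3.93 to -2.06 in knockout, -2.36 to -1.46 in control and -1.14 to -0.05 in D489V. The range of D489V follows in part from how Apold1 was chosen and is given as a description. Knockout replicate 3, at -2.06, lay inside the control range, and the other 4 knockout samples lay below it.

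The immediate early genes, which encode transcription factors and regulators switched on within minutes of a stimulus, followed. Of 35 on the list, 32 were tested. In D489V against control 0 passed in limma (21 at an unadjusted p under 0.05, beside 9.43% of all genes), with a median log2 difference of 0.53 and 31 of 32 positive, against a median of 0 over all genes tested. For 6 of 32 every D489V sample lay above every control, beside 1.1% of all genes tested: Ccn1, Klf10, Junb, Klf4, Dusp1 and Klf6, which were named after their values were seen. In knockout against control 0 passed (12 at an unadjusted p under 0.05, beside 15.1% of all genes). The signs were mixed, with 23 of 32 negative and 9 positive, from -1.23 to 1.92. The median log2 difference was -0.24 (-0.23 without knockout replicate 3, with 8 at that unadjusted level, beside 10.6% of all genes). In D489V against knockout 23 were higher and 1 was lower, beside 10.3% and 10.5% of all genes tested. Without knockout replicate 3 the counts were 20 and 1, beside 7.87% and 7.13%. The latter, the nuclear receptor gene Nr4a3, was named after its value was seen (log2 difference -1.64, limma adjusted p 0.0226). The summed value of the list ran from 31454 to 38555 in knockout, 35498 to 40329 in control and 49238 to 59158 in D489V. The mean log2 value of the 32 genes was also subtracted from that of Apold1, again after the values were seen. The difference was -3.07 to -1.87 in knockout, -1.54 to -0.81 in control and -0.86 to -0.01 in D489V. On this measure D489V overlapped control, and knockout lay below both.

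Fos and Egr1 departed from Apold1 in 2 of the controls. Fos, the classic serum-induced gene, held 1504, 2109, 683, 478 and 423 normalized counts in controls 1 to 5, against 1682, 1092, 2295, 1902 and 1581 in D489V and 523, 695, 301, 435 and 529 in knockout. Controls 1 and 2 thus reached the D489V range of Fos, while their Apold1, at 277 and 209, stayed among the other controls. Egr1, a zinc finger factor of the same response, held 2489 and 2840 in controls 1 and 2, above all D489V samples at 991 to 2085, and 430 to 691 in controls 3 to 5. Junb split likewise (1135 and 1245 against 543 to 641), whereas Klf4 did not (885 and 732 against 724 to 834). The mean of the endothelial list was also highest in controls 1 and 2 among controls, as given above. With controls 1 and 2 left out, a choice made after the values were seen, the log2 difference of Apold1 in D489V against control was 1.36. The groups of Atf3, a stress-induced factor, overlapped, at 108 to 459 in knockout, 139 to 290 in control and 267 to 522 in D489V.

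**Figure D3:**
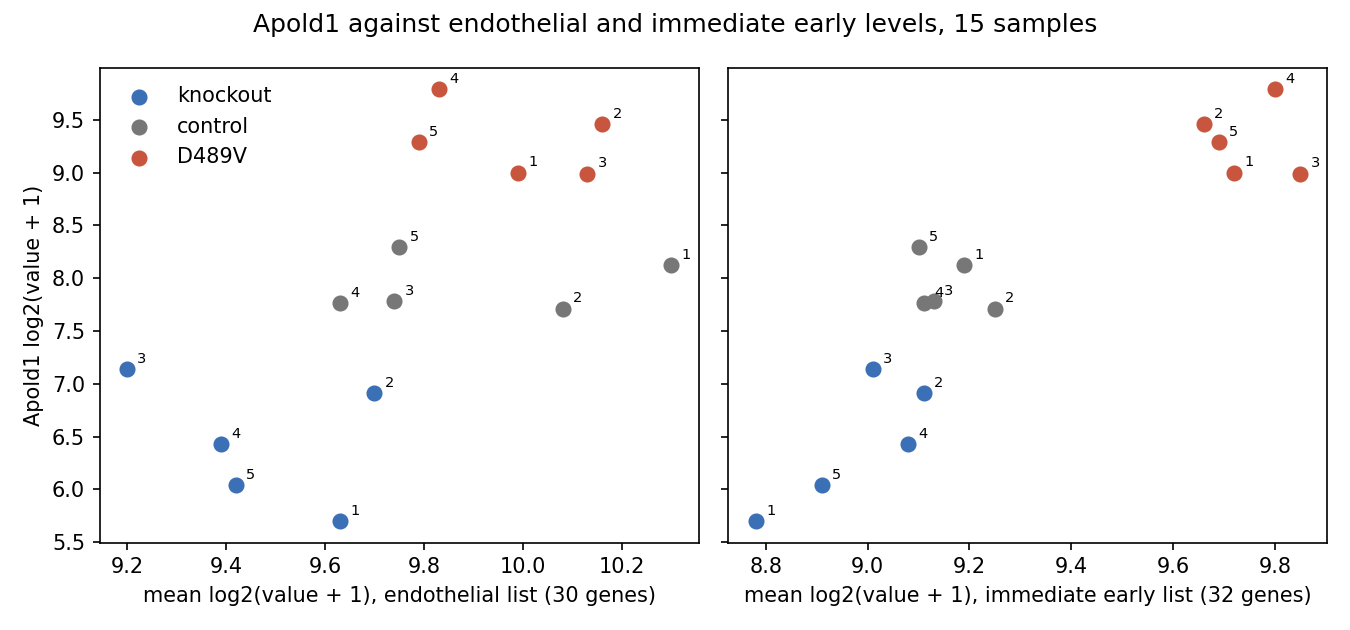
Log2(value + 1) of Apold1 (y axis) against the mean log2(value + 1) of the endothelial list (left) and the immediate early list (right), 1 point per sample with its replicate number, coloured by group. On the right the D489V samples stand apart at 9.66 to 9.85, while knockout (8.78 to 9.11) and control (9.10 to 9.25) lie close together although their Apold1 does not overlap.

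Likeness to Apold1 was measured as Pearson's r of log2(value + 1) over the 15 samples, as a description, since the samples fall into groups that differ in Apold1. The median r was 0.57 over the endothelial list, with 28 of 30 positive, against 0 over all 15806 genes. Over the immediate early list it was 0.67, with 29 of 32 positive. Likeness over the 15 samples was not particular to these lists. The median was 0.74 for erythrocyte genes (7 of 8 positive), 0.57 for Schwann cell genes (8 of 8) and 0.55 for adipocyte genes (9 of 9). It was 0.41 for mural cell genes (12 of 14 positive) and also for endothelial activation genes (11 of 14). The remaining lists had lower medians, down to -0.15 for lymphocyte genes. Once each group's mean was subtracted, which removes the differences between groups, the median r was -0.18 over the endothelial list, with 6 of 30 positive, and 0.07 over the immediate early list, with 19 of 32 positive. Without knockout replicate 3 these medians were 0.04 and 0.01. In the limma fit of each gene on Apold1 with the groups as terms, 0 of 15806 genes passed (624, or 3.95%, at an unadjusted p under 0.05). At that unadjusted level there were 0 of 30 endothelial genes and 8 of 32 immediate early genes, 7 of them with a positive slope. Atf3 had the highest r within groups among the immediate early genes, 0.74, with a limma adjusted p of 0.876.

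**Figure D4:**
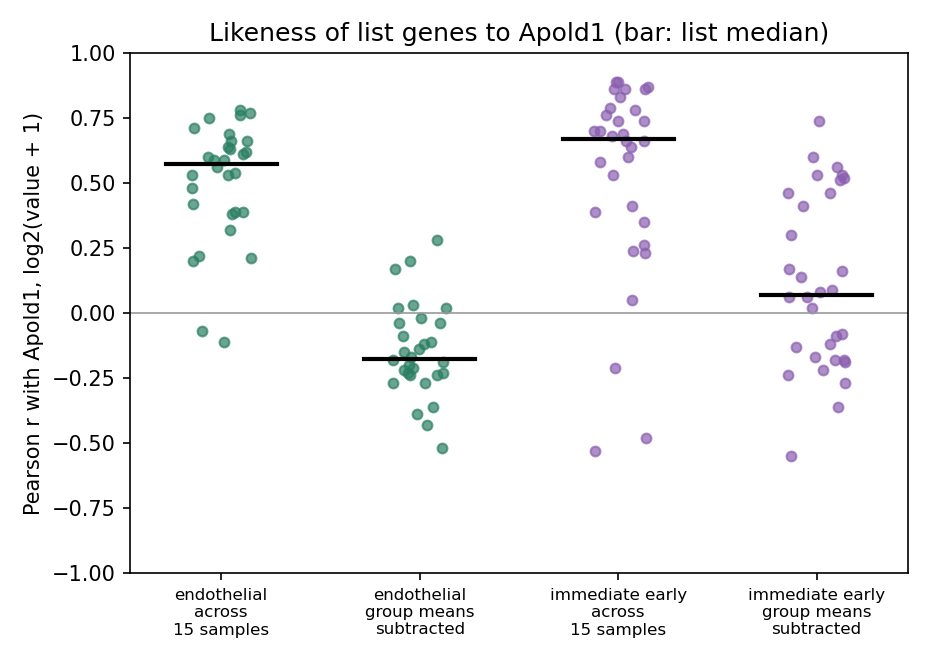
Pearson's r with Apold1 (y axis) for each tested gene of the endothelial and immediate early lists, over the 15 samples and after subtracting the mean of each group. Points are genes, which share the same samples and are not independent, and bars are list medians, which go from 0.57 to -0.18 for endothelial genes and from 0.67 to 0.07 for immediate early genes.

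Genes with the pattern most like Apold1 were taken among those with a mean of 50 or more, by r over the 15 samples. In falling order they were Plk3 (0.957), Cpt1b (0.943), Amotl2 (0.919), Ccn1 (0.894), Dusp1 (0.888), Id1 (0.883), Usb1 (0.880), Adamts1 (0.880), Gm5617 (0.877) and Plcd3 (0.869). Plk3, a polo-like kinase gene that is itself induced as an immediate early gene, held 35, 52, 65, 57 and 32 normalized counts in knockout, 114, 83, 93, 109 and 147 in control and 185, 251, 233, 168 and 164 in D489V. Its groups did not overlap. As the gene was picked for its likeness to Apold1, this separation is a description with no test. Amotl2 and Ccn1 are known targets of the YAP coactivator, Id1 is a target of BMP signalling, and Cpt1b encodes the muscle enzyme that admits fatty acids to mitochondria. Within groups r was 0.62 for Plk3, 0.33 for Cpt1b, 0.06 for Ccn1 and 0.85 for Adamts1, a secreted metalloprotease gene. Adamts1 is the 1 gene among the 10 most alike over all samples and also among the 10 most alike within groups. Its association with Apold1 within groups did not pass (limma adjusted p 0.511). The lowest r within groups, -0.90, was that of Pgap2, which is named for this value and did not pass either (limma adjusted p 0.408).

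Of the 15807 genes in the filter 8, or 0.0506%, had every knockout sample below every control and every control below every D489V sample. They were Apold1, Plk3, Cpt1b, Amotl2, Ccn1, Id1, Klf10 and Gem, an early-induced small GTPase gene, and they are named for this order. The place of Apold1 among them follows in part from how it was chosen and is given as a description. The opposite order held for 1 gene, Mphosph10 (0.00633%). Without knockout replicate 3 the order held for 11 genes (0.0696%), the 8 among them. None of the other 7 passed the limma threshold against control in either comparison. Only 0.00656% (knockout) and 0.0587% (D489V) of all genes did, so this count says little. The limma adjusted p of the 7 ran from 0.214 in knockout and from 0.0549 in D489V upwards.

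**Figure D5:**
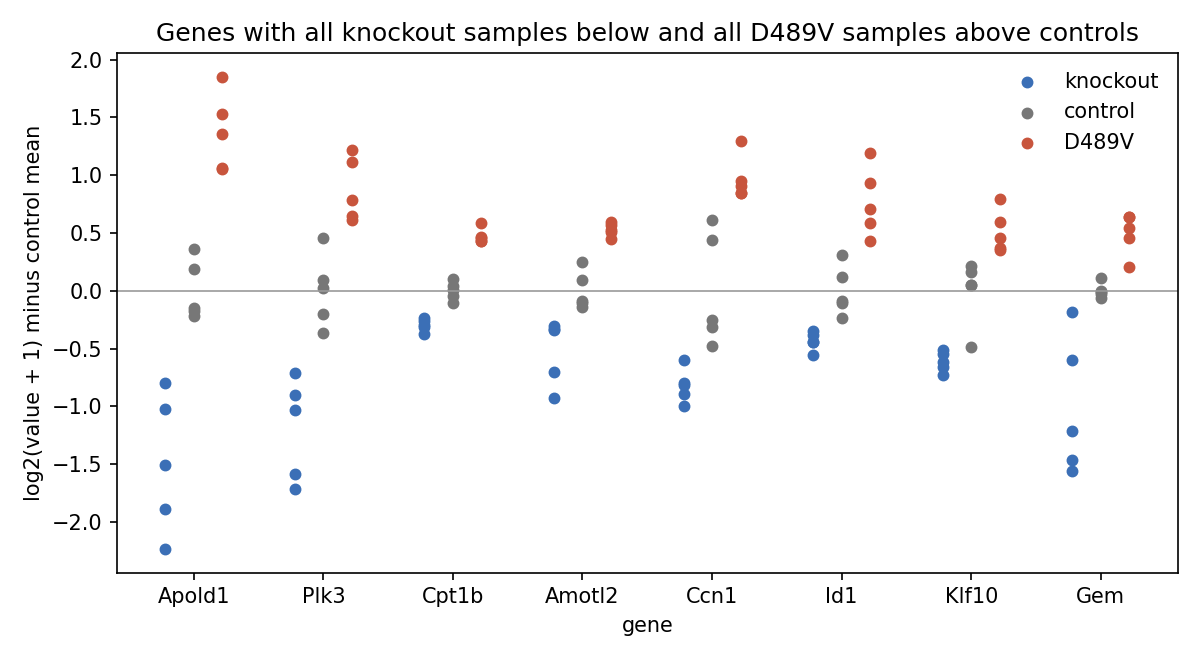
Log2(value + 1) minus the control mean (y axis) in each sample for the 8 genes whose 3 groups are ordered as in Apold1 without overlap. Points are samples, coloured by group. In all 8 the knockout samples lie below and the D489V samples above every control. The gap between groups is narrow in places, as in Gem, where the highest knockout sample held 113 normalized counts and the lowest control 123.

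Lists for other cell types also moved between the mutant groups, and their part in the values of Apold1 was not tested. In D489V against knockout 7 of 9 adipocyte genes, 7 of 8 Schwann cell genes and 6 of 7 erythrocyte genes passed, all higher in D489V, as did 4 of 14 mural cell genes, with 2 lower, beside 10.3% of all genes that were higher and 10.5% lower. Without knockout replicate 3 these counts were 7 adipocyte, 4 Schwann cell, 6 erythrocyte and 4 mural cell genes higher and 1 mural cell gene lower, beside 7.87% and 7.13% of all genes. The summed adipocyte value ran from 32414 to 39645 in knockout, 22741 to 86337 in control and 46524 to 128576 in D489V. The summed erythrocyte value ran from 6322 to 12006, 8176 to 10850 and 14838 to 25188, and the Schwann cell value from 6399 to 10004, 9000 to 14514 and 12565 to 50435. No marker of these 4 lists was at 0 in all samples. The mural cell list holds Pdgfrb, the gene altered in these mice. It was among those lower in D489V than in knockout (log2 difference -0.51, limma adjusted p 0.0258). With the group means subtracted, the median r with Apold1 was -0.05 for adipocyte, -0.18 for erythrocyte, -0.30 for Schwann cell and -0.13 for mural cell genes. It was 0.36 for lymphocyte genes, with 8 of 8 positive, the highest median of the 16 lists. In D489V against knockout 0 of 6 lymphocyte genes passed in limma (0 at an unadjusted p under 0.05), with a median log2 difference of -1.38. The summed lymphocyte value ran from 41 to 4705 in knockout, 39 to 5499 in control and 114 to 280 in D489V. Hypoxia response genes, a further class of stimulus linked to Apold1, had a median log2 difference of -0.02 in D489V against knockout, with 4 of 17 higher and 2 lower (3 and 1 without knockout replicate 3). Pfkfb3, a regulator of glycolysis, was the most changed of these, at 3150 to 7855 in knockout and 10249 to 18870 in D489V (log2 difference 1.57, limma adjusted p 0.00325). Heat shock genes gave 1 higher and 3 lower of 12 (2 and 1 without knockout replicate 3). Both lists stand beside 10.3% of all genes that were higher and 10.5% that were lower.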

How the data were processed

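Total muscle RNA of 15 samples was profiled in 3 groups of 5, taken from the labels' genotype. The authors deposited 2 tables, joined by gene identifier, whose unit is a score: whole numbers rounded from normalized gene counts, by a method not given in the sources used here. Per the submitters' processing notes, Trim Galore 0.6.0, cutadapt, FastQC, STAR 2.7.0e, DESeq2 1.26.0 and GRCm38 were used; their roles are not given in the sources used here. All 55536 identifiers matched GENCODE M21. No count model was run on these rounded values, and read depth is not known from them.

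For each pair of groups, limma 3.58.1 (R 4.3.3) was run on log2(value + 1), using two-sided moderated tests with an intensity trend and genes that reached 10 in 5 or more of the 10 samples, with Benjamini-Hochberg adjustment over all genes and a threshold of 0.05. Fold changes on this scale understate those of low genes. Association with Apold1 was fitted over all 15 samples with group as a term. The scripts were tested on simulated data. The gene and the 16 lists were chosen with earlier results of these data known. Named genes were Apold1, Pdgfrb, 12 fixed reference genes, up to 5 called members per list and comparison by p, the genes most like Apold1, and neighbours within 250 kb. Of these, those the text does not turn on are given in counts, and genes named outside this rule are marked. Python 3.11.15, numpy 2.4.6, pandas 2.3.3, scipy 1.17.1 and matplotlib 3.10.9 were used. Alternatives changed the pseudocount, filter, scaling, variance model, block and samples. Same-numbered samples deviated with correlations from -0.367 to 0.346, which is no sign that equal numbers mark pairs. A gene that the rule names is not reported here.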

Additional observations from a re-analysis of the deposited data

Results flagged for a closer look

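The highest or lowest of 5 samples was taken as far from its group when its gap to the nearest other sample exceeded 0.71 of the group's range, on the log2(value + 1) scale. Of 261 groups of values tested, 11 were far, and chance flags about 5% of groups. No Apold1 sample was far. D489V replicate 3 was far in Ccn1 (11.61 against 11.17 to 11.27 in the other D489V samples), Ndrg1 (11.28 against 10.29 to 10.53), Cidec (9.93 against 11.26 to 11.76) and Prx (12.07 against 10.10 to 10.45). D489V replicate 2 was far in Pecam1 (11.92 against 11.72 to 11.77), Cdh5 (12.36 against 12.19 to 12.23) and Cpt1b (7.95 against 7.79 to 7.83). D489V replicate 4, the sample with the most Apold1, was far in Fam19a5 (7.03 against 6.75 to 6.83). Knockout replicate 1, the sample with the least Apold1, was far in Atf3 (6.77 against 8.45 to 8.85). Control replicate 5 was far in Klf10 (9.38 against 9.91 to 10.08) and Nbdy (8.14 against 7.91 to 7.97).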

How the results depend on the processing

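Apold1 kept its direction in all 3 comparisons under every alternative run. Leaving out one replicate gave log2 differences of -1.66 to -1.30 in knockout against control, 1.25 to 1.46 in D489V against control and 2.68 to 3.04 in D489V against knockout. In knockout against control the limma adjusted p ran from 0.0288 to 0.829 over 19 alternatives, and it passed only in the one fit of all 15 samples (-1.49). The spread in that fit includes the D489V samples that chose the gene. Genes called in knockout against control numbered 1, with 3 after quantile normalization, 16 in the one fit of all 15 samples and 1 to 7 when one replicate was left out. In D489V against control they numbered 9, with 19 at pseudocount 5, 4 at a mean value of 50 or more, 16 after quantile normalization, 29 after upper-quartile rescaling, 21 with robust eBayes, 1 in the one fit of all 15 samples, 120 with controls 1 and 2 left out and 2 to 26 when one replicate was left out. In D489V against knockout they numbered 3181, and 1398 to 3686 when one replicate was left out. Upper-quartile rescaling moved the share of called genes that were higher in D489V: it went from 44.4% to 75.9% with control as reference and from 49.7% to 67.1% with knockout as reference. It also gave 1 gene associated with Apold1 within groups, against 0 as reported and 0 to 0 when one replicate was left out, and 1 immediate early gene in D489V against control, against 0 as reported and 6 with controls 1 and 2 left out. Those controls were left out after seeing the data, for their high Fos and Egr1, so these counts are no test of immediate early genes. In knockout against control, 1 endothelial gene passed in the one fit of all 15 samples; leaving out one replicate gave 0 to 1 endothelial genes (1 without knockout replicate 2) and 0 to 1 immediate early genes (1 without control replicate 5). In D489V against knockout these fits gave 13 to 21 endothelial and 17 to 22 immediate early genes. Median correlations with Apold1 within groups ran from -0.30 to 0.04 for endothelial and 0.01 to 0.14 for immediate early genes. When replicate number entered as a block, 1, 7 and 2208 genes passed, and Apold1 differed by -1.49, 1.37 and 2.86; it changed no call reported for Apold1. Of 810 values for 45 results on single genes named by the rule, 725 kept direction and side of the threshold, 85 no longer passed and 0 reversed. The cause was not tested. The rounding of low values and the unknown depth limit what can be said of genes near 10.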
